A study of Mus musculus with 21 samples.

Results

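Aerocytes are the capillary endothelial cells of the lung that lie spread over the thin part of the alveolar wall, where gas is exchanged. Cells of this kind were chosen from single-cell RNA sequencing counts by a fixed gate. A cell had to hold a UMI (unique molecular identifier, 1 counted RNA molecule) of at least 1 of the 3 endothelial genes *Pecam1*, *Cldn5* and *Cdh5*, and of at least 2 of the 5 aerocyte genes *Car4*, *Ednrb*, *Apln*, *Fibin* and *Tbx2*. *Car4* or *Ednrb* had to be among them, and a cell with a UMI of *Vwf*, *Slc6a2*, *Ptprc* or *Col1a2* was left out. The gate took 1249 of 45034 cells of unchallenged lung and lung metastasis TME (tumor microenvironment), and 7716 of those cells were endothelial, meaning that they held a UMI of the 3 endothelial genes and none of *Ptprc* and *Col1a2*.

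The host mice were mT/mG animals, young adults of both sexes, which express membrane-targeted tdTomato in every cell and carried no Cre. Fragments of MT-ret, a mouse melanoma, were transplanted under the skin, the primary tumor was resected, and lung metastases were collected later. The paper states that the metastasis samples also held a little adjacent tissue without tumor. Its amount per library was not given, and its part in the shares and gene levels was not tested. Unchallenged lungs of mT/mG mice were the control. All tissues were dissociated, cryopreserved and sorted for living tdTomato+ cells, in some cases with removal of CD45+ cells, and it was not stated which libraries had that removal.

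Lungs hold a pair of capillary cell types. General capillary cells can divide and give rise to both types after injury, whereas aerocytes are specialised, depend on VEGFA signalling from the epithelium, and are marked by the membrane carbonic anhydrase *Car4* and the endothelin receptor *Ednrb*. Aerocytes release the peptide apelin, encoded by *Apln*, and general capillary cells carry its receptor *Aplnr*. For comparison, general capillary cells were gated as endothelial cells with at least 2 of *Gpihbp1*, *Aplnr*, *Kit*, *Plvap* and *Glp1r*, including *Gpihbp1* or *Aplnr*, with the same 4 excluding genes, and not aerocytes. This gave 1662 cells.

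The 4 unchallenged lung libraries held 148, 147, 363 and 374 aerocytes (replicates 1, 4, 5 and 6), 1032 in all. The 4 lung metastasis libraries held 7, 10, 191 and 9 (replicates 1-3, 4, 5 and 6), 217 in all. A further pair of metastasis libraries held the same values as replicates 5 and 6 and was counted once. All 1036 cells of metastasis replicate 6, with the same barcodes and UMI totals, also stand in the table under the name of a cancer cell library, so its label as TME is in doubt. The shares and most counts of calls that use it are also given without it. A median aerocyte had 5764, 6741, 2897 and 1509 UMIs in the 4 lungs, and 2803, 6585, 2758 and 6350 in the 4 metastases. Lung replicate 6 stood apart: 59.4% of its aerocytes had at least 3 of the 5 aerocyte genes, against 86.4 to 94.6% in the other 3 lungs, and a list of 7 leukocyte genes summed to 6961 CPM in them (counts scaled to 1000000 UMIs of the same cells), against 122 to 552. In that library 1334 of 25966 cells met the criteria on endothelial and aerocyte genes but held *Ptprc* or *Col1a2*. In lung replicates 1, 4 and 5 these were 5 of 1326, 38 of 4085 and 127 of 6009 cells. *Vwf* and *Slc6a2* were not considered in these counts. Marker lists of further cell types were also uneven in the aerocytes: 4 genes of club and ciliated cells summed to 18.6 to 5930 CPM in the lungs and 101 to 9729 in the metastases, 7 of alveolar type 2 cells to 72.1 to 3314 and 0 to 959, and 6 of fibroblasts to 9.58 to 233 and 50.7 to 1498. No cell barcode was shared between aerocytes of different libraries, while up to 48 were shared between all cells of a pair of libraries.

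The 5 genes of the gate chose the cells, so their levels are a description with no test. *Car4* lies at chr11:84957786-84966044 (plus strand), *Ednrb* at chr14:103814625-103844402 (minus), *Apln* at chrX:48025146-48034853 (minus), *Fibin* at chr2:110360917-110363183 (minus) and *Tbx2* at chr11:85832551-85841948 (plus), all on GRCm38 in the GENCODE annotation. Promoter windows of RefSeq, 250 bases before to 50 after a start site on GRCm38.p6, were given for 4 of the 5 genes, *Tbx2* being the exception. They were searched on both strands for AGGAAG, a form of the ETS motif bound by endothelial ETS factors such as *Erg*, and for GGTGTG, the core bound by T-box factors such as *Tbx2*. The windows did not overlap in their matches: *Apln* held 1 ETS match, 113 bases before the start, *Fibin* held 1 T-box match, 35 bases after it, and *Car4* and *Ednrb* held neither. Of 32851 windows, 35.4% held the ETS letters and 19% the T-box letters, so these matches are a description. The windows of *Car4*, the gene most often detected in the lung cells, and of the 2 genes with a match are shown 5′ to 3′ on the gene's strand, with the match in capitals as read on that strand (CTTCCT and CACACC are the reverse complements). Their positions are chr11:84957504-84957803 for *Car4*, chrX:48034804-48035103 for *Apln* and chr2:110362944-110363243 for *Fibin*.
Car4: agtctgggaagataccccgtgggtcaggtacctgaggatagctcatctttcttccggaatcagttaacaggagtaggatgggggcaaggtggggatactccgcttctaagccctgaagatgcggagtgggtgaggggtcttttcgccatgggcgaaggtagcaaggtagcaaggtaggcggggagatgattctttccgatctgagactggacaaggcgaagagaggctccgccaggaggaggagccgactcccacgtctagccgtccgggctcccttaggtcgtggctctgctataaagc
Apln: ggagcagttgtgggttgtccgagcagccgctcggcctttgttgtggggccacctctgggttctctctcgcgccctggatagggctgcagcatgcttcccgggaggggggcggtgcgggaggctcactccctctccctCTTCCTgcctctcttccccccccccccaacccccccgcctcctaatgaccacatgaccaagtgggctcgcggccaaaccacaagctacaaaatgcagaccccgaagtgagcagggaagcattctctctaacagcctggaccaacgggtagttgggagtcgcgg
Fibin: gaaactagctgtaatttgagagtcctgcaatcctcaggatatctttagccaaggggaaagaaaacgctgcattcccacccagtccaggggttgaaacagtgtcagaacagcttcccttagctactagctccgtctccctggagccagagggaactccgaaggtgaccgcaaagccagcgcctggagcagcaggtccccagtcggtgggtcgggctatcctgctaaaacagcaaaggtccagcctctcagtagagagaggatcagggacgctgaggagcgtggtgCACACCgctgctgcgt

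In unchallenged lung, *Car4* was detected in 99.3, 99.3, 95.9 and 86.4% of the gated cells, at 4529, 3493, 2353 and 1474 CPM. *Ednrb* stood at 1895, 2042, 2450 and 1744 CPM, the narrowest range of the 5 as a fold. *Fibin*, which encodes a secreted protein, stood at 1373, 1707, 910 and 740 CPM, and the transcription factor *Tbx2* at 788, 708, 714 and 395. *Apln* was the lowest and least often detected, at 458, 407, 325 and 197 CPM and in 74.3, 70.1, 53.2 and 23.5% of cells. Lung replicate 6, the shallowest library, was the lowest for all 5. All 5 genes together were detected in 375 of the 1032 lung cells, 4 in 249, 3 in 181 and 2 in 227.

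In lung metastasis replicate 5, which held most metastasis aerocytes, *Car4* stood at 1548 CPM, *Ednrb* at 623, *Fibin* at 671, *Tbx2* at 445 and *Apln* at 225. Only *Ednrb* lay under the whole range of the lungs by more than 2-fold, and the same gene was low in metastasis replicate 6 (715 CPM), which held 9 aerocytes. It was detected in 100, 90, 78 and 88.9% of the gated cells of metastasis replicates 1-3, 4, 5 and 6. In lung replicates 1, 4, 5 and 6 the shares were 91.9, 89.1, 94.8 and 83.4%. As the gate chose cells by this gene, no tissue difference is read from these values. Of the 217 metastasis cells, 43 had all 5 genes and 76 had 2. The share without a UMI of *Car4* was 0.676, 0.68, 4.13 and 13.6% in lung replicates 1, 4, 5 and 6. In metastasis replicates 1-3, 4, 5 and 6 it was 14.3, 10, 22.5 and 22.2%, of 7, 10, 191 and 9 cells. *Tbx2* alone with *Ednrb* admitted 10.6% of the metastasis cells and 1.74% of the lung cells. These 2 shares pool the cells of all libraries of a tissue, and 191 of the 217 metastasis cells came from replicate 5. They describe cells and not replicates. *Tbx2* was detected in 46.9% of the cells of metastasis replicate 5 that had no endothelial UMI, against 1.76 to 4.36% of such cells in the 4 lungs.

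Endothelial cells without a UMI of an excluding gene were split by the number of the 5 genes they held, to see what lay just inside and just outside the threshold. In the lungs, the VEGF receptor gene *Kdr* stood at 299 CPM with none of the 5 genes, 476 with 1, 1048 with 2, 2616 with 3, 3437 with 4 and 3525 with 5. *Gpihbp1*, which anchors lipoprotein lipase on general capillary cells, stood at 1085 CPM with 1 gene, 486 with 2, 94.5 with 3 and 40.4 with 4. The lung cells with 2 genes lay between the neighbouring classes for both. Lung replicate 6, the shallowest library, gave 152 of the 227 aerocytes with 2 genes and 36 of the 375 with 5. Without it, *Kdr* stood at 472 CPM with 1 gene, 1222 with 2 and 3014 with 3, and *Gpihbp1* at 1391, 968 and 158. In metastasis the cells with 1 gene had 89.5 CPM of *Kdr* and 379 of *Gpihbp1*, those with 2 had 325 and 765, and those with 5 had 2094 and 202. The metastasis cells with 2 genes numbered 98, of which 76 passed the gate, 72 of them from replicate 5. Their *Kdr*, and their *Emp2* at 140 CPM, lay in the range of lung cells with 0 or 1 gene (*Emp2* 102 and 151, against 826 with 2). *Igfbp7* went the other way, at 1058 CPM against 344 in lung cells with 2. Whether these 76 cells are aerocytes was not tested. The melanocyte gene *Dct* stood at 15051 CPM with 1 gene, 12011 with 2 and 3334 with 5 in metastasis, and at 0.436 to 4.3 CPM with 1 or more genes in the lungs, apart from 0 with 3.

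**Figure D1:**
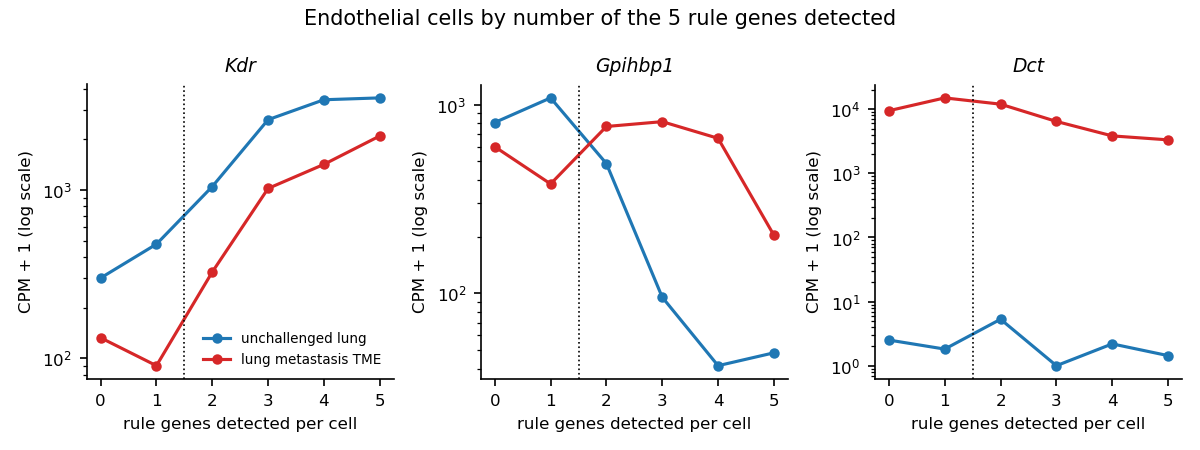
Levels of *Kdr*, *Gpihbp1* and *Dct* (CPM + 1, log axis) in endothelial cells of the pooled libraries of each tissue, by how many of the 5 gate genes a cell held (x axis). The dotted line is the threshold of 2; *Kdr* was higher with each further gene from 1 gene on in both tissues, *Gpihbp1* fell from 486 to 47.5 CPM in lung but only from 765 to 202 in metastasis, and *Dct* was high in metastasis at every number.

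The first question was how much of the endothelium the aerocytes formed in each tissue. To compare libraries of unlike depth, each cell was thinned to 1000 UMIs and shallower cells were left out (41, 117, 127 and 2545 cells of the lungs and 16, 15, 172 and 50 of the metastases). The gates were applied after thinning, so a cell that lost its UMIs of an excluding gene could enter. Lung replicate 4 held 1310 endothelial cells at its own depth and 1512 when thinned. Aerocytes then made up 18.9, 10.4, 22.9 and 13.3% of endothelial cells in the lungs (144 of 760, 157 of 1512, 367 of 1605 and 341 of 2562 cells). In the metastases the shares were 6.32, 6.3, 12.5 and 5.29% (6 of 95, 8 of 127, 127 of 1018 and 9 of 170). The exact 95% binomial intervals, which cover counting error only, were 2.35 to 13.2% for replicate 1-3 and 10.5 to 14.7% for replicate 5. Metastasis replicate 5 lay above lung replicate 4, and every other metastasis library lay below all 4 lungs. The mean share was 16.4% ± 5.6 (SD, n = 4) in lung and 7.6% ± 3.29 (SD, n = 4) in metastasis, a difference of -8.78 percentage points (two-sided exact permutation test, p = 0.0571, where 0.0286 is the smallest value 4 against 4 libraries allow). Without thinning the difference was -8.83 points, and without metastasis replicate 6 it was -8.01 points (exact permutation test, p = 0.114). The library names give 3 run numbers, each with both tissues, and do not say what a run was. Inside runs 1, 2 and 3 the difference was -12.6, -4.08 and -9.2 points, with 1, 1 and 2 libraries a tissue. With the tissue labels permuted inside runs, the exact two-sided permutation test gave p = 0.0833, the smallest value this design allows.

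As a share of the 2 capillary types, aerocytes made up 33.7, 18.3, 51.6 and 74.9% in the lungs and 13, 16.7, 33.3 and 19.6% in the metastases. The lungs spanned a 4-fold range by themselves, and the groups overlapped. The means were 44.6% ± 24.4 and 20.7% ± 8.87 (SD, n = 4 each), and the difference of -24 points did not pass the exact permutation test (two-sided p = 0.114). By the same exact test it was -32.8 points without lung replicate 4 (p = 0.0286) and -13.9 points without lung replicate 6, the library with the highest share (p = 0.229). It was -23.6 points without metastasis replicate 6, and -20.7, -1.63 and -36.8 points inside runs 1, 2 and 3 (exact permutation test inside runs, p = 0.0833, again the smallest possible). Without thinning the difference was -16.8 points (exact permutation test, p = 0.286), with 40% in metastasis replicate 4 and 43.6% in replicate 5. Thinned to 2000 UMIs it was -15.5 points with 3 metastasis libraries (exact permutation test, p = 0.429). The sort setting and the amount of adjacent tissue, which could change which cells enter a share, cannot be told apart from the library.

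**Figure D2:**
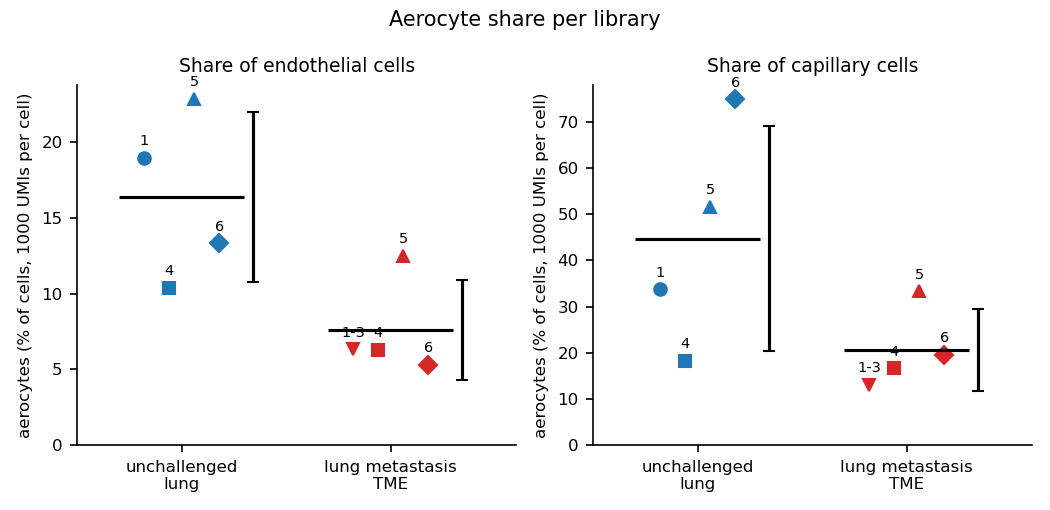
Aerocytes as a percentage of endothelial cells (left) and of both capillary types (right) in cells thinned to 1000 UMIs, 1 symbol a library with its replicate number, horizontal line the mean and bar the SD (n = 4 each). The metastasis libraries lie at 5.29 to 12.5% of endothelial cells and the lungs at 10.4 to 22.9%, and the 2 groups overlap in both panels.

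The second question was which genes separated aerocytes from general capillary cells of the same library. UMIs were summed per library and cell type in the 5 libraries with at least 20 cells of each, 4 lungs and metastasis replicate 5, and fitted in edgeR with the library as a block, genes of either gate left out. Of 8473 genes tested, 2278 (26.9%) were called at an adjusted p under 0.05. Aerocytes were higher for 1119 (13.2%) and lower for 1159 (13.7%). Because both types were chosen by genes that go with many others, these calls describe how the 2 gated sets differ.

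A list of 11 further aerocyte genes, none used by the gate, was higher in aerocytes for 11 of 11 members (13.2% of all genes tested), with a median difference of 3.28 on the log2 scale against -0.01 over all genes tested. The list checks the label, and its members were known to mark these cells. *Kdr*, the main VEGF receptor, stood at 2850, 2803, 3842 and 2493 CPM in aerocytes of the 4 lungs and at 440, 379, 610 and 615 in general capillary cells. The types did not overlap, and in metastasis replicate 5 the values were 969 and 318 CPM. The difference was 2.43 ± 0.16 (log2, SE; edgeR adjusted p = 1.89e-07). *Nrp1*, the co-receptor of *Kdr*, stood at 2056 to 3001 CPM against 672 to 852 in the lungs, a smaller difference of 1.52 ± 0.13.

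The membrane gene *Emp2* stood at 3616, 3772, 3575 and 1685 CPM in aerocytes and at 48, 11.3, 92.5 and 132 in general capillary cells (log2 difference 5.66 ± 0.49). *Chst1*, a sulfotransferase of carbohydrates, stood at 334 to 552 CPM against 0.872 to 30.8. The secreted protein gene *Igfbp7* was the most uneven, at 6740, 5429, 2391 and 862 CPM in the 4 lungs. *Kitl*, the ligand of the receptor *Kit*, stood at 2493, 2445, 2566 and 1471 CPM against 269 to 413. *Tbx3*, a T-box factor related to *Tbx2*, stood at 1024 to 1649 CPM against 358 to 464 and differed by 1.7 ± 0.12. The cell cycle inhibitor *Cdkn2b*, *Sirpa*, *Pmp22* and *Rprml* were also higher, by 4.38, 3.28, 2.64 and 6.4 on the log2 scale.

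The genes with the largest differences were mostly near absence in general capillary cells. *Dpysl5*, a gene of the collapsin response family, stood at 95.8, 95.1, 132 and 89.5 CPM in the lung aerocytes and at 0 in general capillary cells of all 5 libraries. *Pcolce2*, an enhancer of procollagen processing, stood at 336, 330, 252 and 160 CPM against 0.436 to 8.79. *Egflam*, an extracellular matrix protein, stood at 144 to 208 CPM against 0 to 4.4, and the cAMP phosphodiesterase *Pde8b* at 90.9 to 150 against 0 to 4.4. *Fndc1*, *Xpnpep2*, *Ccdc184*, *Tmeff2* and *Lrrn3* completed the 10 with *Rprml*, and their fitted differences were 7.39, 7.34, 6.9, 6.19 and 6.18. *Xpnpep2*, an aminopeptidase that cleaves bradykinin, reached 1015 CPM in the 7 cells of metastasis replicate 1-3, against 15.3 to 154 in the other 7 libraries.

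In the other direction, 6 of 6 tested members of the general capillary list were lower in aerocytes (13.7% of all genes). The natriuretic peptide clearance receptor *Npr3* stood at 32.4, 96.2, 19.7 and 7.1 CPM in aerocytes and at 1237, 1492, 237 and 207 in general capillary cells. *Cd93* stood at 35.9 to 142 CPM against 1323 to 1834. *Sema3c*, a guidance ligand, stood at 224 to 289 CPM against 1540 to 2110 (-2.66 ± 0.11), and the chemokine *Cxcl12*, the angiopoietin receptor *Tek* and *Bmp6* were lower too, with log2 differences of -3.74, -3.07 and -2.7. The 10 genes with the most negative differences were *Gpr182*, *Scube1*, *Dnah8*, *Npr3*, *Edn1*, *Wfdc1*, *Pcsk5*, *Hmcn1*, *Ntn1* and *Tox3*, at -4.35 to -3.9. The receptor *Gpr182* stood at 5.99 to 15.6 CPM against 176 to 346, and the guidance ligand *Ntn1* at 2.4 to 19.9 against 101 to 141.

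**Figure D3:**
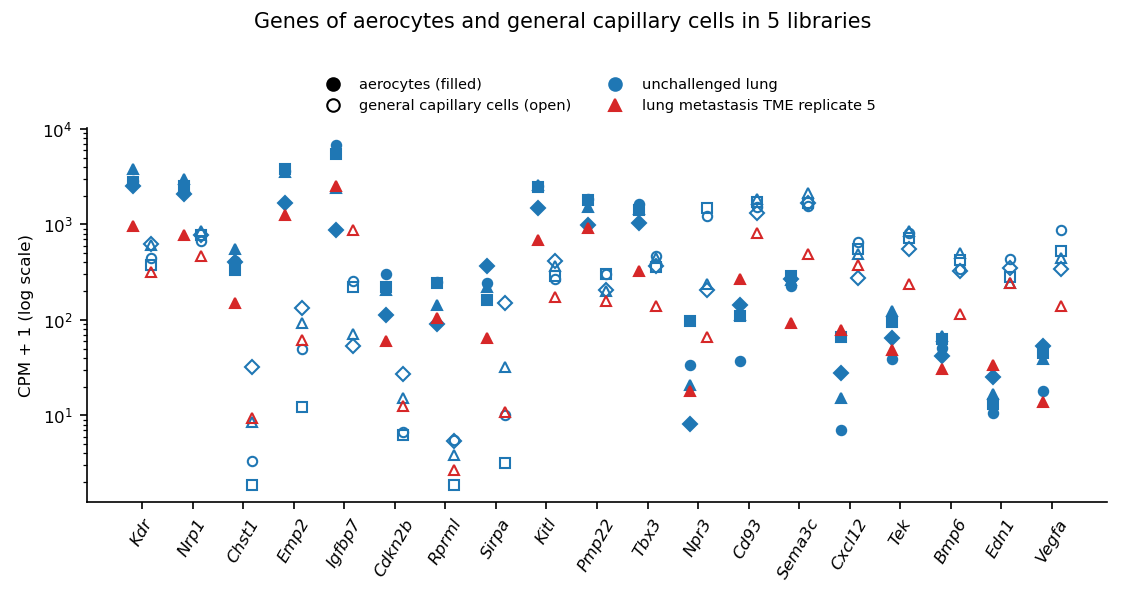
Levels (CPM + 1, log axis) of the 11 further aerocyte genes, the 6 tested general capillary genes and the ligands *Edn1* and *Vegfa* in aerocytes (filled) and general capillary cells (open) of 5 libraries. Circles, squares, triangles and diamonds are replicates 1, 4, 5 and 6, blue is unchallenged lung and red is lung metastasis TME replicate 5. In each library the filled symbol lies above the open one for the 11 genes on the left and below it for the 8 on the right.

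The pairs of signals and receptors between the 2 capillary types were read next. Of 32 genes of the ligand and receptor list, 22 were tested, 3 were higher in aerocytes (*Kdr*, *Nrp1*, *Kitl*), 12 were lower, and the list's median was -0.39. Over all genes tested 13.2% were higher and 13.7% lower, so the number higher was close to that background. Endothelin 1, encoded by *Edn1* and the ligand of *Ednrb*, stood at 9.58, 12, 15.6 and 24.1 CPM in lung aerocytes and at 428, 280, 244 and 347 in general capillary cells. The 2 types did not overlap in any library, and the difference was -4.02 ± 0.24 (edgeR adjusted p = 8.4e-08). Its receptor *Ednrb*, a gene of the gate, stood at 1744 to 2450 CPM in aerocytes against 0.872 to 22 in general capillary cells, and the other receptor, *Ednra*, reached at most 2.72 CPM in aerocytes of the 4 lungs. The converting enzyme *Ece1* was lower (-0.63), at 435 to 620 CPM against 740 to 896.

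The ligand *Vegfa*, which signals through *Kdr*, stood at 16.8, 43.7, 38.1 and 52.5 CPM in lung aerocytes and at 867, 527, 447 and 338 in general capillary cells (-3.74 ± 0.28). *Vegfc* was lower too (-3.55 ± 0.38). The receptors *Flt1* and *Flt4* were not called, at -0.3 ± 0.11 and -0.07 ± 0.15. For apelin, whose genes belong to the gates, aerocytes had 197 to 458 CPM of *Apln* and 9.58 to 22.5 of *Aplnr*, and general capillary cells had 0.436 to 8.79 and 204 to 299. For *Kit*, also a gate gene, general capillary cells had 646 to 831 CPM and aerocytes 21.6 to 56.8. *Kitl*, which no gate used, ran the opposite way. Among other receptors, *Tek* (-3.07), *Tie1* (-0.68), *Notch4* (-1.13), *Bmpr2* (-0.46) and *Eng* (-0.31) were lower in aerocytes, while *Notch1*, *Dll4*, *Jag2* and *Acvrl1* were not called.

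Of 17 antigen presentation genes, 12 were lower and none was higher, and of 14 tested interferon genes, 12 were lower and none was higher, with medians of -0.58 and -1.12, against 13.7% of all genes called lower and a median of -0.01. Members of MHC class II stood out. *Cd74*, the invariant chain, stood at 144, 117, 160 and 704 CPM in lung aerocytes and at 4759, 546, 1951 and 1323 in general capillary cells (-2.97 ± 0.43, edgeR adjusted p = 0.000168). *H2-Aa* stood at 25.2, 29.5, 55.1 and 256 CPM against 1126, 351, 618 and 369, and *Ciita*, the transactivator of MHC class II, at 2.4 to 9.94 against 39.7 to 104 (-3.82 ± 0.3). Lung replicate 6 was the highest aerocyte library for these genes, and it was also the one with the highest leukocyte list (6961 CPM in aerocytes and 4765 in general capillary cells). The part of leukocyte RNA in the difference was not tested.

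MHC class I genes differed less. *H2-Q7* (-1.06) and *H2-K1* (-0.5) were lower, while *H2-D1* and *B2m* were not called at -0.08 ± 0.08 and -0.06 ± 0.08. Among interferon genes, the GTPase gene *Iigp1* stood at 20.4, 10.9, 42.9 and 49.7 CPM against 341, 137, 694 and 400 (-3.59 ± 0.19), and *Gbp2* at 12 to 39.8 against 154 to 271. *Irf1* and *Irf7* were not called. In metastasis replicate 5, *Cd74* stood at 185 CPM in aerocytes and 1714 in general capillary cells, so the order of the 2 types was the same there.

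**Figure D4:**
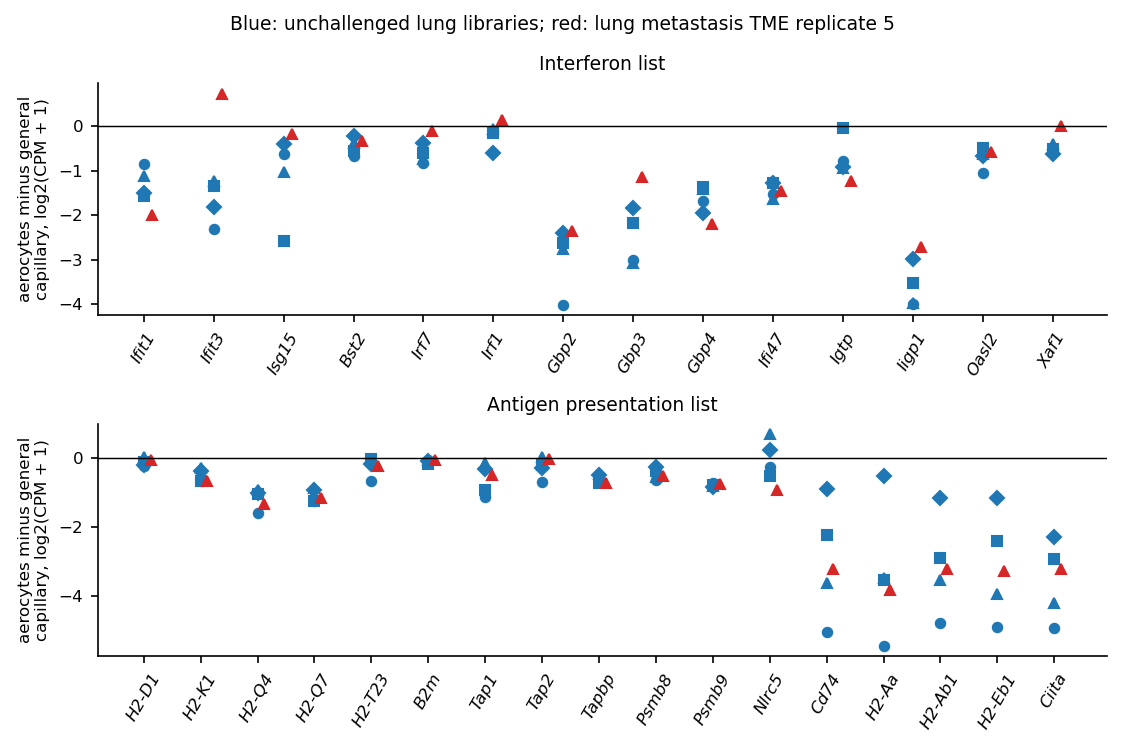
Aerocytes minus general capillary cells, log2(CPM + 1), inside each library for 14 interferon genes (top) and 17 antigen presentation genes (bottom), with circles, squares, triangles and diamonds for replicates 1, 4, 5 and 6, blue for lung and red for metastasis replicate 5. Most symbols lie below 0, the 5 MHC class II genes on the right lie lowest, and lung replicate 6 (diamond) is nearest to 0 for these 5.

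Adhesion and matrix genes were mixed. Of 11 tested genes of the endothelial activation list, 3 were higher (13.2% of all genes) and 4 were lower (13.7%), the latter being *Cxcl12*, *Cd40* (-0.9), *Csf1* (-2.49) and *Socs3* (-1.03). *Icam1* and *Icam2*, adhesion receptors for leukocytes, were higher in aerocytes by 1.59 and 1.29, and *Icam1* stood at 489, 307, 420 and 209 CPM against 101 to 133. The membrane chemokine *Cx3cl1* was higher by 1.48, and *Sele* had no UMI in either type in the 5 libraries. Of 10 tested matrix and adhesion genes, 4 were higher (*Col4a2*, *Lamc1*, *Nid1*, *Itga3*) and 3 were lower (*Lama5*, *Itga1*, *Itga6*), against 13.2% and 13.7% of all genes. The integrin genes ran in opposite directions: *Itga3* stood at 194 to 408 CPM in lung aerocytes against 48.4 to 76.6, and *Itga6* at 29.8 to 51.7 against 347 to 861. *Hopx* and *Clic5*, the 2 tested members of the alveolar type 1 list, were higher in aerocytes, at 528 to 1236 against 220 to 230 CPM and at 730 to 1457 against 484 to 650.

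Vascular tone and transport genes were lower for 8 of 13 tested (13.7% of all genes), none higher. Lipoprotein lipase (*Lpl*, -3.01), *Nos3*, the endothelial nitric oxide synthase (-2.12), and *Car2* (-1.35) were among the lower ones. *Lpl* reached 442 CPM in aerocytes of lung replicate 6 and 10.8 to 50.4 in the other 3 lungs. The water channel *Aqp1* and *Ace* were not called, at 0.01 ± 0.09 and -0.09 ± 0.12. All 3 tested arterial genes were lower, *Hey1* (-3.66), *Gja4* (-3.85) and *Efnb2* (-1.07). Of the pan-endothelial list, *Emcn* was higher and 6 of 14 were lower, including *Tie1* and *Fli1*.

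The order of the 2 types was also read in metastasis alone, with the 4 libraries of at least 5 cells each. There 1349 genes were tested and 166 were called (12.3%), and all of these 166 were tested in lung alone as well, where 2506 of 8686 genes were called (28.9%). Of the 166, 165 had the same sign in lung alone and 160 were called there with that sign. Over all 1345 genes tested in both, 1063 (79.0%) had the same sign and 561 (41.7%) were called in lung with it. Without metastasis replicate 6, 115 genes were called in metastasis alone, of which 114 had the same sign in lung alone and 113 were called there with it.

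The third question was how the cells gated as aerocytes in the metastases differed from those in unchallenged lung. Of these, 76 of 217 in the metastases and 227 of 1032 in the lungs held only 2 of the 5 gate genes. Of the 76, 72 were in metastasis replicate 5, and of the 227, 152 were in lung replicate 6. With at least 20 cells required, only metastasis replicate 5 entered against the 4 lungs, and the fit takes its spread from the lungs, as if the lone library varied like them. That library was named as of run 3, as were lung replicates 5 and 6, while lung replicates 1 and 4 were of runs 1 and 2. The fit held no term for the run. The libraries also differed in leukocytes: *Ptprc* was detected in 2.79% of the cells of metastasis replicate 5 without an endothelial UMI, against 81.1 to 93.3% in the 4 lungs, and the 7 leukocyte genes had a median difference of -4.48 in the aerocytes, all below 0 and none called. Their sum was 122, 142, 552 and 6961 CPM in aerocytes of the 4 lungs and 101 in metastasis replicate 5, so most of the distance was to lung replicate 6. The removal of CD45+ cells cannot be told apart from the library here. Of 10484 genes tested, 149 (1.42%) were called, 145 higher (1.38%) and 4 lower (0.0382%) in metastasis. The count depended on single lungs: edgeR called 0 genes without lung replicate 5 (1536 at an unadjusted p under 0.05) and 1634 without lung replicate 6 (1099 higher, 535 lower), and DESeq2 called 647 with all 5 libraries (381 higher, 266 lower). Without cells holding a UMI of the alveolar epithelial genes *Sftpc* or *Ager*, edgeR called 180 of 8562 genes, 158 higher and 22 lower. All 6 genes of the melanoma list were higher, and the 10 largest differences were those of *Dct*, *Syt4*, *Pmel*, *Tyrp1*, *Ptgds*, *Slc45a2*, *Car6*, *Lgi4*, *Cited1* and *Mlana*, of which 7 had no UMI in the aerocytes of any lung. With 1 metastasis library, the filter on low counts kept a gene that had enough UMIs in a single library. Genes with few or no UMIs in the lungs thus entered only through metastasis replicate 5. Nothing is read from their calls or from their place among the largest differences. *Dct* stood at 0, 0, 0.68 and 4.26 CPM in the 4 lungs, and at 203, 336, 8403 and 2360 in the 4 metastases.

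The metastasis aerocytes also held RNA of melanocyte genes. All aerocytes of metastasis replicates 4, 5 and 6 and 3 of 7 in replicate 1-3 held a UMI of *Dct*, *Tyrp1*, *Pmel* or *Mlana*, against 0 to 0.802% in the lungs. Cells of metastasis replicate 5 without an endothelial UMI had 16916 CPM of *Dct*. Of the 145 genes higher in metastasis, 123 were at least as high in those cells as in the aerocytes, with a median ratio of 1.51, and 142 were also higher in general capillary cells of that library than in those of any lung. The shares of all genes tested that met these conditions were not computed, so nothing is read from the counts. The part of this RNA in the differences was not tested, as no aerocyte of replicate 5 lacked it. Hypoxia and glycolysis genes were higher for 8 of 15 tested (1.38% of all genes), with a median of 2.61 against -0.12 over all genes, and *Gapdh* stood at 144 to 308 CPM in the lungs and 1225 in metastasis replicate 5, against 1524 in its cells without an endothelial UMI.

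For 10 of the 145 genes the level in cells without an endothelial UMI was below 0.5 times that in the aerocytes. They were *Ankrd37*, Igfbp3, *Angpt2*, *Trp53i11*, Col15a1, Vwa1, Fam167b, *Plvap*, Cdh13 and *Gpihbp1*. General capillary cells of replicate 5 held them too, at 1747 CPM against 848 in its aerocytes for *Gpihbp1* and 868 against 350 for *Plvap*. *Trp53i11* (104 against 91) and Vwa1 (62.9 against 55.5) were also higher there. The others were lower there, from Igfbp3 (243 against 255) to Cdh13 (62.9 against 96.7). The part of general capillary cells or their RNA was not tested. *Angpt2*, the antagonist ligand of *Tek*, stood at 2.4, 4.37, 8.85 and 8.52 CPM in the lungs, at 92.5 in replicate 5, at 53.6 in replicate 6 and at 0 in the other 2 metastases, which held 7 and 10 cells. Its difference was 4.03 ± 0.52 (edgeR adjusted p = 0.0282), and cells of replicate 5 without an endothelial UMI had 45 CPM. Igfbp3 stood at 255 CPM in replicate 5 and at most 7.1 in a lung, and had no UMI in the other 3 metastases.

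*Gpihbp1* stood at 68.3, 176, 89.8 and 69.6 CPM in lung aerocytes and at 152, 61.2, 848 and 572 in the metastases. Replicates 5 and 6 lay above every lung and the other pair did not. The difference was 3.2 ± 0.52 (edgeR adjusted p = 0.0473) and was 3.87 ± 0.35 in cells with at least 3 of the 5 aerocyte genes. It was 2.17 ± 0.59 and no longer called (adjusted p = 0.136) with the 4 metastasis libraries of at least 5 cells, and likewise in cells with a UMI of *Car4* (2.59 ± 0.52, adjusted p = 0.106). With those 4 libraries and cells with at least 3 of the 5 genes it was 3.13 ± 0.5 and called (adjusted p = 0.00368). Without metastasis replicate 6 these were 2.09 ± 0.66 (adjusted p = 0.249) and 2.92 ± 0.55 (adjusted p = 0.0424). *Plvap*, the protein of fenestral diaphragms, stood at 82.7 to 119 CPM in the lungs and at 0, 0, 350.0 and 89.4 in the metastases, so that replicate 5 alone lay above the lungs. Its difference of 2.03 ± 0.31 was 3.24 ± 0.44 and called in cells with at least 3 of the 5 genes, and 0.48 ± 0.37 and not called in cells with a UMI of *Car4*. With the 4 metastasis libraries of at least 5 cells it was 0.85 ± 0.61 and not called (edgeR adjusted p = 0.573). With at least 5 cells and 3 genes, and without metastasis replicate 6, it was 2.435 ± 0.63 and not called (edgeR adjusted p = 0.206).

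The 11 further aerocyte genes had a median difference of -1.48 on the log2 scale in metastasis replicate 5, and 11 of 11 differences were below 0, against a median of -0.12 and 54.5% below 0 over all genes. None was called by edgeR (0.0382% of all genes were called lower), and 7 had an unadjusted p under 0.05 (21.1% of all genes). DESeq2 called 6 of them lower (2.54% of all genes). Other lists lay below 0 as well: 13 of 14 tested pan-endothelial genes (median -0.44, 1 called) and 15 of 16 antigen presentation genes (median -0.71, none called). The pan-endothelial genes summed to 8215 CPM in aerocytes of metastasis replicate 5, against 8456 to 18004 in the lungs and 10352 to 15022 in the other 3 metastases. *Kdr* stood at 3045, 1162, 969 and 1734 CPM in the 4 metastases, 3 of them below all lungs (2493 to 3842). Its difference was -1.48 ± 0.44 with an edgeR adjusted p of 0.136. In cells with at least 3 of the 5 aerocyte genes the median was -1.06, and with the 4 metastasis libraries of at least 5 cells and at least 3 genes it was -0.7 (-0.88 without metastasis replicate 6), so its size moved with the threshold of the gate and with the libraries used. Of the 4 called lower genes, *Sox18*, a transcription factor of endothelial cells, stood at 227 to 554 CPM in the lungs, at 12.8 and 89.4 in replicates 5 and 6, and at 304 and 474 in the other 2 metastases. *Epha2*, *Smad6* and *Atp2a3* were the others, and none of the 4 was called with the 4 metastasis libraries of at least 5 cells.

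With those 4 libraries, 30 genes were called, 29 of them higher, and 20 of the 29 were also among the 145. Without metastasis replicate 6, 19 genes were called, all higher, and 17 of them were among the 29. In 17 of the 29 every metastasis library lay above every lung, which held for 138 of all 7808 genes tested (1.77%), and since the 29 were chosen as higher nothing is read from this. For 14 of these 17, among them *Dct* and *Syt4*, cells of replicate 5 without an endothelial UMI were at least as high as its aerocytes. The share of all genes tested for which this held was not computed, and the part of their RNA was not tested. The 17 included the peptide hormone adrenomedullin (*Adm*), at 0, 0, 1.36 and 1.42 CPM in the lungs and 50.7, 15.3, 105 and 483 in the metastases, and the tetraspanin Tspan4, at 29.8 to 63.5 CPM against 195 to 306. Such cells of replicate 5 had 164 CPM of *Adm* and 203 of Tspan4, against 105 and 195 in its aerocytes. *Ankrd37*, a target of hypoxia-inducible factor, stood at 5.46 to 8.52 CPM against 17.9 to 102 and had 17.5 CPM in cells of replicate 5 without an endothelial UMI. Ntrk2, a neurotrophin receptor, stood at 1.2 to 5.68 CPM against 15.3 to 71.5, and such cells had 0.827. Of these 4 genes, Ntrk2 was no longer called without metastasis replicate 6, and the other 3 were. With 7 to 10 cells in 3 of these libraries, 1 UMI is worth 15.3 to 50.7 CPM there, so these levels rest on few molecules.

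The last question was whether the tissue difference was the same in both capillary types. The interaction was fitted with the library as a block on 11276 genes, and 48 were called (0.426%), 27 with a more positive metastasis-minus-lung difference in aerocytes than in general capillary cells (0.239%) and 21 with a more negative one (0.186%). Metastasis replicate 5 was the only metastasis library, so the spread came from the 4 lungs. With 2 metastasis libraries of at least 10 cells 55 genes were called, and with 4 of at least 5 cells 58, or 54 without replicate 6. For the 10 named genes of the first kind, general capillary cells lay above aerocytes in every lung, and the 2 types lay closer together in metastasis replicate 5. *Mmp14*, a membrane-bound matrix metalloproteinase, stood at 2.19 to 8.52 CPM in lung aerocytes and 33.6 to 62.3 in lung general capillary cells, but at 125 and 131 in metastasis replicate 5 (interaction 3.34 ± 0.44, edgeR adjusted p = 0.000948). *Angpt2* went from 2.4 to 8.85 against 21.7 to 61.4 CPM in the lungs to 92.5 against 74.4. *Adamts1*, a secreted protease, and *Cd81*, a tetraspanin, had interactions of 3.21 and 3.12. For 7 of the 10 named genes of this kind (*Adamts1*, *Car14*, *Cd81*, *Mlph*, *Mmp14*, *Ptpn14* and *Sparcl1*), cells of replicate 5 without an endothelial UMI were at least as high as its aerocytes, with 211 against 186 CPM for *Adamts1* and 202 against 125 for *Mmp14*. The share of all genes tested for which this held was not computed, so nothing is read from such counts for either kind. The part of their RNA in these interactions was not tested.

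For the 10 named genes of the second kind, aerocytes lay above general capillary cells in every lung, and the ratio was smaller in metastasis replicate 5. *Igfbp7* stood at 6740, 5429, 2391 and 862 CPM in lung aerocytes and at 254, 217, 70.8 and 52.7 in general capillary cells, and at 2502 against 875 in metastasis replicate 5. Its interaction of -3.29 ± 0.28 had the lowest adjusted p of the 20 named genes (edgeR, 8.46e-06). *Meox1*, a homeobox factor, went from 27 to 189 against 0 to 3.43 CPM in the lungs to 102 against 26.5, and cells of replicate 5 without an endothelial UMI had 0.873. For 3 of the 10 named genes of this kind (*1500009L16Rik*, *Fam174b* and *Gpnmb*), those cells were at least as high as the aerocytes. *Gpnmb*, a gene of melanocytes and macrophages, stood at 1149 and 845 CPM in the 2 types of replicate 5 and at 1908 in those cells. *Cd93* of the general capillary list also had a positive interaction. Without the library block no gene was called by edgeR (278 at an unadjusted p under 0.05, and 14 called by DESeq2 with the block), and without lung replicate 6 there were 188.

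**Figure D5:**
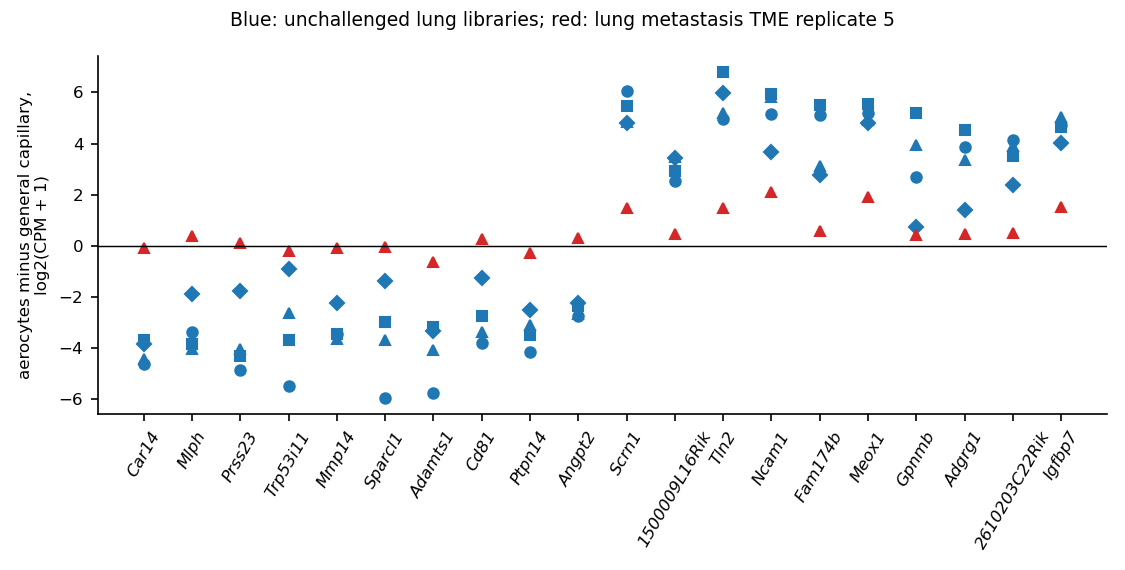
Aerocytes minus general capillary cells, log2(CPM + 1), for the 20 named genes whose tissue difference differed between the types, with circles, squares, triangles and diamonds for replicates 1, 4, 5 and 6, blue for lung and red for metastasis replicate 5. The 10 genes on the left lie below 0 in the 4 lungs and near 0 in metastasis replicate 5, and the 10 on the right lie above 0 in the lungs and closer to 0 in metastasis.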

How the data were processed

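The authors ran 10x Genomics 3′ libraries through Cell Ranger 6.1.1 against GRCm38, took them into Seurat 3.2.2, removed cells by quantiles of ribosomal and mitochondrial counts and of detected genes, and deposited 1 table of raw counts with 110283 barcodes and 32285 genes. Only the deposited counts were used here, not the normalised values. Of 24 library names in the table, 6 were not used because 5 are cancer cell libraries and 1 primary tumor name could not be matched to 1 labelled sample. The lung metastasis TME libraries 7 and 8 held the same counts as 5 and 6 and were counted once. Metastasis replicate 1-3 joins 2 names.

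No doublet caller was run. The sources used here do not say how doublets were treated before deposit, and the gate leaves out cells with a UMI of Ptprc or Col1a2. Whether CD45+ cells were removed is not given per library. Members, gene lists and tests were chosen with earlier results of these data known. Replicates are libraries. Their names carry different mouse numbers in the 2 tissues and a run number, and metastasis replicate 1-3 pools more than 1 mouse. The lung library counted as replicate 1 is named replicate 2 in the table and was matched as the only control lung left. P-values of the shares measure the spread between libraries, part of which may be technical. Those of the cell type fit measure how the difference between the types varied over libraries. In the tissue and interaction fits with 1 metastasis library, the spread comes from the lungs alone.

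UMIs were summed per library and cell type and tested with the quasi-likelihood test of edgeR 4.0.16 in R 4.3.3 (TMM, filterByExpr, Benjamini-Hochberg adjustment, threshold 0.05). Genes of the gates were left out of tests they bear on. The tissue comparison and the cell type comparison used libraries with at least 20 cells of each type used, the latter and the interaction with the library as a block. CPM are summed UMIs scaled to 1000000 UMIs of the same cells. Shares were compared by exact two-sided permutation tests on cells thinned to 1000 UMIs. Intervals are exact Clopper-Pearson intervals and cover counting error only. Genes were named as the 10 largest differences per direction among called genes with at least 50 CPM in the higher group and no overlap of the libraries (inside libraries, the same sign in all, and for the interaction no overlap of the library-wise differences of the tissues), together with the gate genes and the lists of aerocyte, general capillary and ligand and receptor genes. Of other lists, members with high levels in aerocytes were to be named, and several more were chosen after their values were seen. One gene of the interferon list is not reported here and was left out of its counts. Promoters come from RefSeq on GRCm38.p6 and gene positions from GENCODE.

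On simulated counts with 200 changed genes, the cell type test called 77.5% of genes changed by 1 on the log2 scale (8131 genes), the tissue test 0%, 4.5% and 45% of those changed by 1, 2 and 3 (9660 to 9677 genes), and the interaction 0%, 35% and 64% (11014 to 11029 genes). Unchanged genes were called too, 11 beside 155 changed ones in the cell type test at 1. At 3 these were 8 beside 90 in the tissue test and 7 beside 128 in the interaction. The lone metastasis library was simulated with the spread of the same fit, so this cannot check that it varied like the lungs. The alternatives were DESeq2 1.42.0, other size factors, no filter on low counts, other minimum cell numbers, stricter gates, other thinning, leaving out each replicate, and the replicate block.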

Additional observations from a re-analysis of the deposited data

Results flagged for a closer look

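Of 60 groups of 4 libraries searched, 7 values lay far from the other 3 libraries of their group by Dixon's test, which flags about 1 in 20 groups by chance. The share of aerocytes among endothelial cells in metastasis replicate 5, 12.48%, was far above the other 3 metastasis libraries. In aerocytes, the summed alveolar type 2 list was far above the rest at 3314 CPM in lung replicate 6 and at 958.8 CPM in metastasis replicate 5, the leukocyte list at 6961 CPM in lung replicate 6, and the club and ciliated list at 9729 CPM in metastasis replicate 5. *Emp2* at 1685 CPM and *Kitl* at 1471 CPM were far below the other lungs in lung replicate 6.

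The tissue difference differed between aerocytes and general capillary cells, by the interaction term, for 20 named genes. The interaction was positive for *Car14* (4.7), *Mlph* (4.5), *Prss23* (3.87), *Trp53i11* (3.62), *Mmp14* (3.34), *Sparcl1* (3.31), *Adamts1* (3.21), *Cd81* (3.12), *Ptpn14* (3.06) and *Angpt2* (2.91). It was negative for *Scrn1* (-5.68), *1500009L16Rik* (-5.41), *Tln2* (-4.8), *Ncam1* (-4.78), *Fam174b* (-4.68), *Meox1* (-3.9), *Gpnmb* (-3.56), *Adgrg1* (-3.44), *2610203C22Rik* (-3.38) and *Igfbp7* (-3.29). All of these rest on metastasis replicate 5 as the one metastasis library.

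The same gate took 31 of 480 endothelial cells in the primary tumor TME, a tissue with no alveoli that no comparison used. Of these, 30 had no UMI of *Car4*, and 21 passed on *Ednrb* and *Apln* alone.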

How the results depend on the processing

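The difference in the share of endothelial cells lay between -10.8 and -6.62 percentage points when each library was left out, and the difference in the share of capillary cells between -32.8 and -13.9. With the replicate block these were -7.5 and -25.1 points (exact p = 0.25, the smallest 3 pairs allow). Same-numbered libraries of the 2 tissues correlated at 0.0346, -0.356 and 0.101 in their deviations. With 10 and 9 aerocytes in metastasis replicates 4 and 6, these values cannot decide whether the libraries are paired. Their names carry different mouse numbers, and the numbers were not treated as pairs. In the tissue comparison 149 genes were called in the report, 647 with DESeq2, 21 with at least 10 cells a library, 30 with at least 5, 99 with at least 3 aerocyte genes a cell, 46 with a UMI of *Car4*, 31 without the cells above the 90th percentile of UMIs, 21 with the replicate block at 5 cells, 19 at 5 cells with 3 genes (13 without metastasis replicate 6), 19 at 5 cells without metastasis replicate 6, and 0 to 1634 when each lung was left out. It was 0 without lung replicate 5 (1536 at an unadjusted p under 0.05) and 1634 without lung replicate 6. The comparison of cell types gave 2278 calls, 1394 with DESeq2, 1006 with no replicate block, 166 in metastasis alone with at least 5 cells (115 without replicate 6), and 1486 to 2506 when each library was left out. The interaction gave 48 calls, 14 with DESeq2, 119 with no filter on low counts, 29 with a UMI of *Car4*, 0 with no replicate block, and 34 to 188 when each lung was left out. No called gene among those named reversed its sign under an alternative that was run. Of the alternatives for these genes, 99 of 252 in the tissue comparison were weaker, with the sign kept but the call lost. So were 62 of 294 in the interaction and 20 of 661 in the comparison of cell types. The settings at 5 cells, without replicate 6 at 5 cells, with labels permuted inside runs, with a UMI of *Car4* and in metastasis alone, and the share with at least 3 aerocyte genes, were chosen after seeing the data. Not run, because too few metastasis libraries with enough cells were left for the fit, were the tissue comparison and interaction without metastasis replicate 5, the tissue comparison with the block at 20 cells or without cells holding melanoma UMIs, and metastasis alone at 20 cells. With 7 to 10 aerocytes in 3 metastasis libraries, few genes have a usable level there.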
